A study of Caenorhabditis elegans with 18 samples.

Results

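The proteasome is the protease that cells use to break down ubiquitin-tagged proteins, and its subunit genes are described here over 5 compound treatments and a solvent control in Caenorhabditis elegans. Members were all probe sets whose annotated gene symbols began with pas-, pbs-, rpn- or rpt-, which gave 39 probe sets of 33 genes out of 22548 probe sets that were not array controls. The 33 genes were 7 of the 20S alpha ring (pas-1 to pas-7), 7 of the 20S beta ring (pbs-1 to pbs-7), 13 of the 19S non-ATPase subunits (rpn) and 6 of the 19S ATPases (rpt-1 to rpt-6). Among them rpn-13, a ubiquitin receptor, and rpn-6.2, a paralog of rpn-6.1, came in by their symbols. A gene with several probe sets was read from its brightest one.

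The arrays measured whole-animal RNA from wild-type N2 worms that had been grown for 56 h at 22°C to the young adult stage. They were then kept for 8 h in S Basal liquid with E. coli OP50 as food, at 6000 animals per well. LK32, LK34, LK35, LK38 and LK56, compounds that the study examined as immune stimulants, were given at 100 µM, and the control wells received the matching amount of the solvent, DMSO. Each of the 6 groups had 3 arrays, marked A, B and C and described by the submitters as biological replicates, for 18 arrays in all, and the p-values measure the spread between such replicates. Arrays of a group correlated at 0.9537 to 0.986 on average with each other. An intact worm is a mixture of tissues, so fewer cells of a type and less RNA per cell could not be told apart in any difference below.

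The 20S core is a stack of rings: the outer alpha rings gate the chamber, and the inner beta rings hold the proteolytic sites, which by homology to yeast lie in PBS-1, PBS-2 and PBS-5. The 19S particle caps the core, with RPN subunits that bind and remove ubiquitin or act as scaffolds and RPT subunits that unfold the substrate with ATP. When proteasome function falls, worms raise transcription of the subunit genes together through SKN-1A, a form of the transcription factor SKN-1 that the enzymes PNG-1 and DDI-1 release and edit. The study followed proteasomal stress with a reporter driven by the promoter of rpt-3. It tested LK35, LK38 and LK56 in this way, not LK32 or LK34, and reported no activation. That exposure was longer than the 8 h of the arrays, and the readout was fluorescence. The values below show the messages of rpt-3 and of the other subunits.

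No such joint rise was seen. Against DMSO, at an adjusted p under 0.05 (limma over all 22548 probe sets, Benjamini-Hochberg within each comparison), 1 of the 33 genes was lower under LK34, LK35 and LK38, pas-7 each time, and 1 was higher under LK34 and LK35, rpn-2. Under LK32 and LK56 0 genes were called in either direction, and under LK38 0 were called higher. The share of all probe sets called higher was 0.927% under LK32, 2.25% under LK34, 1.71% under LK35, 2.19% under LK38 and 0.767% under LK56, and the share called lower was 0.0133%, 1.39%, 1.88%, 1.58% and 0.0222% in the same order. A single gene is 3.03% of the 33, so none of these counts stood far from the share over all probe sets. Under every compound 0 genes passed the adjusted p together with a 2-fold difference, against 0.696%, 1.49%, 0.993%, 1.57% and 0.514% of all probe sets that did so upward and 0%, 0.812%, 1.15%, 0.75% and 0.0133% downward, in the same order.

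At an unadjusted p under 0.05 in limma, 1 gene was higher and 1 lower under LK32, 2 and 2 under LK34, 4 and 2 under LK35, 3 and 5 under LK38, and 3 and 0 under LK56. Over all probe sets the shares at that limit were 7.34% higher and 1.17% lower under LK32, 7.39% and 4.77% under LK34, 6.3% and 6.07% under LK35, 7.27% and 4.91% under LK38, and 10.5% and 0.794% under LK56. Behind these counts pas-7, rpn-1, rpn-2, rpn-6.2, pbs-3 and pbs-5 stood in more than 1 comparison, and pas-1, pas-4, pbs-6, rpn-12 and rpn-13 in 1 each.

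The median log2 difference from DMSO over the 33 genes was -0.08 under LK32, 0.05 under LK34, 0.06 under LK35, -0.05 under LK38 and 0.09 under LK56. Over all probe sets, 46.3 to 49.4% of which were at the lowest value on each array, the median was 0, while over the 9033 brighter probe sets (log2 intensity above 5 on at least 3 arrays) it was 0.12, 0.06, 0.04, 0.05 and 0.23 in the same order. Relative to that shift of the brighter probe sets, the proteasome median was -0.21 under LK32, -0.02 under LK34, 0.02 under LK35, -0.10 under LK38 and -0.15 under LK56. The direction under LK34 and LK56 therefore depended on the scaling, and under LK38 the median was 0.01 when a gene's probe sets were averaged. None of those medians is read as a rise or a fall. Under LK32 the median was negative on both scales, with 24 of 33 genes below DMSO. Under LK35 it was positive on both, with 22 of 33 above. The SD of the array medians within groups was 0.15, and no test over the set was made, so these too are description only.

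For most single genes the bounds lay within 2-fold, and no interval was made for a joint change of the set. The 95% interval of the difference lay wholly inside 2-fold in either direction for 33 of 33 genes under LK32, for 31 with each of LK34, LK35 and LK38, and for 32 under LK56. pas-7 and rpn-6.2 were the exceptions under LK34, LK35 and LK38, and rpn-6.2 was the exception under LK56. A log2 difference under 0.5 in size was found for 32, 30, 31, 31 and 32 of the 33 genes under LK32, LK34, LK35, LK38 and LK56, against 78%, 71.7%, 69.7%, 71.9% and 74.9% of the brighter probe sets. A closer comparison is with the 1947 probe sets at least as bright as the dimmest of the proteasome genes other than rpn-6.2 and rpt-6. Of these, 89.1%, 81.3%, 77.6%, 82.4% and 91% had such a difference, in the same order. The median SD within groups was 0.17 on the log2 scale for the proteasome genes. It was 0.28 over the brighter probe sets and 0.19 over the 1947.

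**Figure D1:**
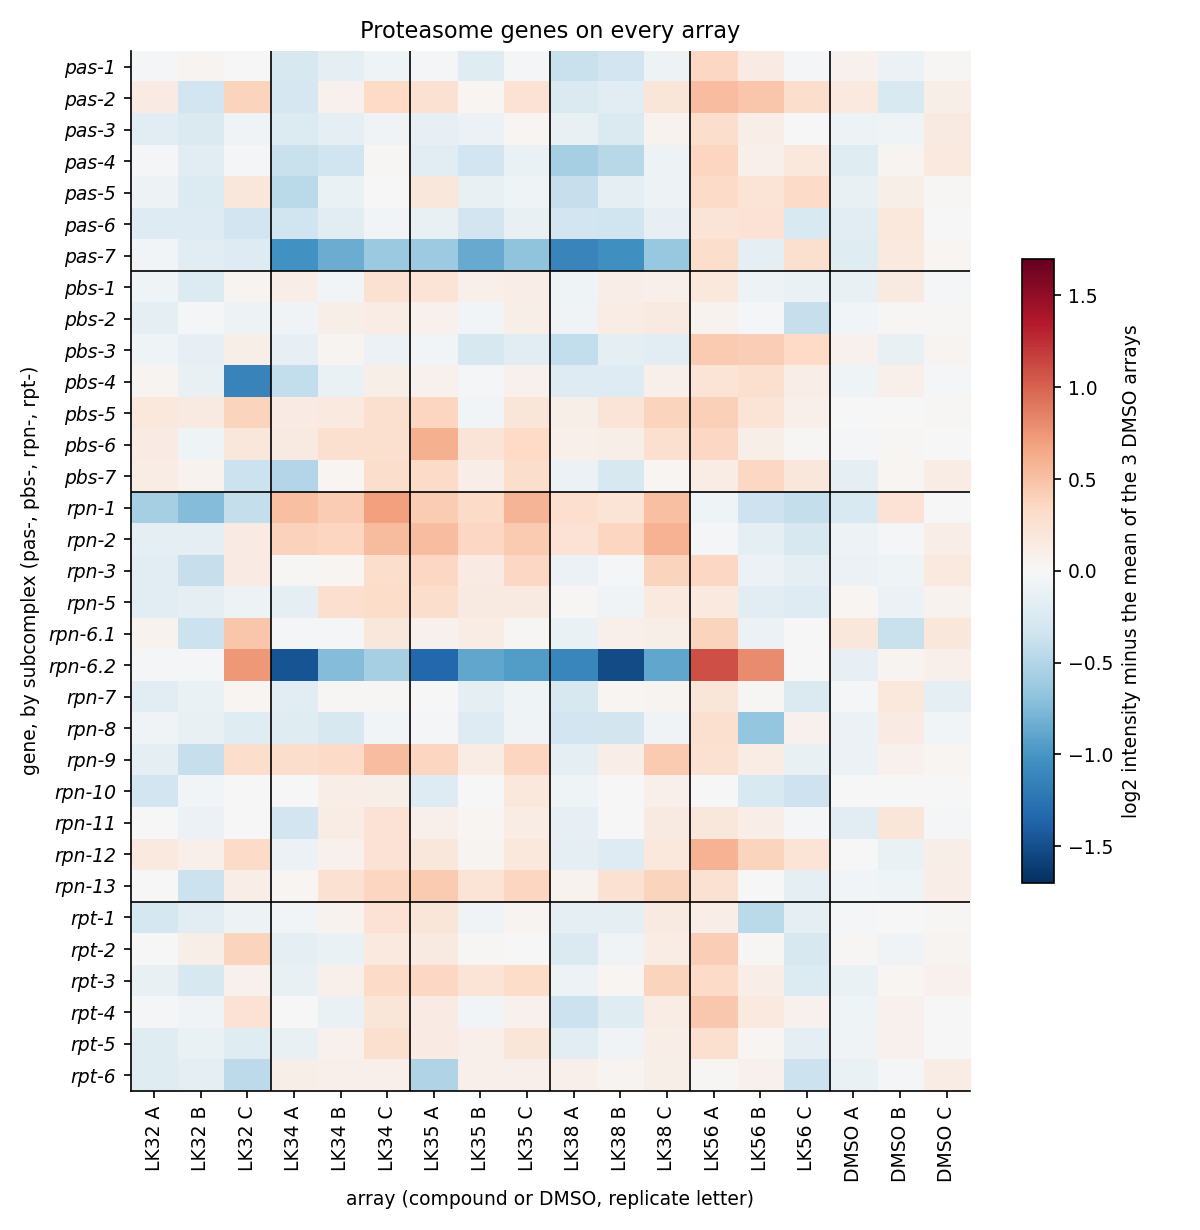
Each row is 1 of the 33 proteasome genes and each column 1 of the 18 arrays, with the compound groups to the left of DMSO. Colour gives the log2 intensity minus the mean of the 3 DMSO arrays. Most cells are pale, while pas-7 and rpn-6.2 are blue on all 9 arrays of LK34, LK35 and LK38, and rpn-1 and rpn-2 are red on the same 9.

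Among the genes of the alpha ring, whose subunits form the gate of the core, pas-7 was the only one called against DMSO. Its intensities were 821, 938 and 1079 under LK34, 1095, 926 and 1049 under LK35 and 770.0, 814 and 1069 under LK38 on arrays A, B and C, against 1459, 1890.1 and 1711 in DMSO. All 9 of those compound arrays lay below all 3 DMSO arrays. Under LK32 it had 1621, 1476 and 1447 and under LK56 2054, 1505 and 2021, and both groups overlapped DMSO. The means were 946 ± 129 under LK34, 1023 ± 87.3 under LK35, 884 ± 161 under LK38, 1515 ± 93.3 under LK32, 1860 ± 308 under LK56 and 1687 ± 216 in DMSO (SD, n = 3 each).

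On the log2 scale pas-7 fell by 0.84 under LK34, by 0.72 under LK35 and by 0.94 under LK38 (SE 0.16 each, limma adjusted p = 0.00894, 0.0232 and 0.00407), which is 0.560, 0.608 and 0.522 times the DMSO level. The differences under LK32 and LK56 were -0.15 and 0.13 and did not pass. When each array was left out in turn, the call held in 18 of 18 fits under LK34 and under LK38. Under LK35 it held in 14 of 18 and was lost without DMSO B, DMSO C, LK35 B or LK35 C, while the difference stayed between -0.82 and -0.63. When the arrays of the 2 groups alone were fitted, with the same differences, all 3 calls were lost (limma adjusted p = 0.109, 0.125 and 0.145). The probe set is of the kind whose probes can match several transcripts, although the annotation pairs it with pas-7 alone, and pas-7 has no other probe set.

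The other 6 alpha genes passed in no comparison against DMSO, and their differences lay between -0.37 (pas-4 under LK38) and 0.43 (pas-2 under LK56). All 7 alpha genes were below the DMSO mean under LK38 and all 7 above it under LK56. The median over the ring was -0.26 under LK38, -0.19 under LK34, -0.09 under LK35, -0.08 under LK32 and 0.16 under LK56, the last below the shift of 0.23 in the brighter probe sets. pas-5, the brightest of the group, had 4683, 4233 and 5678 under LK32, 3628, 4624 and 4968 under LK34, 5694, 4578 and 4740.4 under LK35, 3802, 4497 and 4678 under LK38 and 6246, 5849 and 6257 under LK56, against 4555, 5348 and 5068 in DMSO. Only the LK56 arrays stood clear of DMSO, all 3 above it, without passing the test.

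pas-6, the next brightest, had 4284, 4272 and 3982 under LK32, 3934, 4361 and 4806 under LK34, 4549.7, 3947 and 4549.7 under LK35, 3959, 3911 and 4493 under LK38 and 5776, 5898 and 4157 under LK56, against 4366, 5617 and 4995 in DMSO. The 3 LK32 arrays were below the lowest DMSO array and the other groups overlapped DMSO.

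In the beta ring, which carries the cutting sites, 0 of 7 genes passed against DMSO with any compound in limma. The ring's median was -0.06 under LK32, 0.05 under LK34, 0.14 under LK35, 0.04 under LK38 and 0.21 under LK56. Its genes ranged from -0.40 (pbs-4 under LK32) to 0.40 (pbs-3 under LK56). For the 3 subunits with proteolytic sites, pbs-1 differed by -0.09 to 0.14, pbs-2 by -0.12 to 0.07 and pbs-5 by 0.17 to 0.24. The lowest adjusted p of the ring was 0.0668, for pbs-3 under LK56, and the next was 0.0828, for pbs-6 under LK35. Array C stood apart for pbs-4 under LK32, where the intensities were 2353, 2089 and 1039, against 2166, 2429 and 2253 in DMSO.

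pbs-3 is named because its values were seen to stand apart. It had 4986, 4909 and 4671 under LK56, against 3875, 3377 and 3803 in DMSO, so that all 3 LK56 arrays were above DMSO, by 0.40 on the log2 scale (SE 0.09). A second probe set of pbs-3 differed by 0.29 under LK56 (SE 0.16, limma adjusted p = 0.53). pbs-7, the brightest of the ring, had 4809.9, 4598 and 3412 under LK32, 3118, 4507 and 5430.5 under LK34, 5495, 4746 and 5421 under LK35, 4118, 3641 and 4517 under LK38 and 4804, 5612 and 5040.0 under LK56, against 3951, 4488 and 4809.9 in DMSO. Its groups were spread widely, and LK34 alone ran from below every DMSO array to above every one. A second, dimmer pbs-7 probe set had 4235, 4434 and 3942 under LK56, against 2979.8, 2532 and 3286 in DMSO, all 3 LK56 arrays being above DMSO, by 0.53 on the log2 scale (SE 0.16, limma adjusted p = 0.187), where the brighter one differed by 0.22 (SE 0.18) and overlapped DMSO. Next was pbs-6, with 3960.2, 3399 and 4109.7 under LK32, 3982, 4342 and 4343 under LK34, 5482, 4169 and 4529.6 under LK35, 3814, 3834 and 4336 under LK38 and 4586, 3838 and 3635 under LK56, against 3536, 3656 and 3581 in DMSO. The DMSO arrays of pbs-6 lay close together, and all arrays of LK34, LK35 and LK38 were above them.

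**Figure D2:**
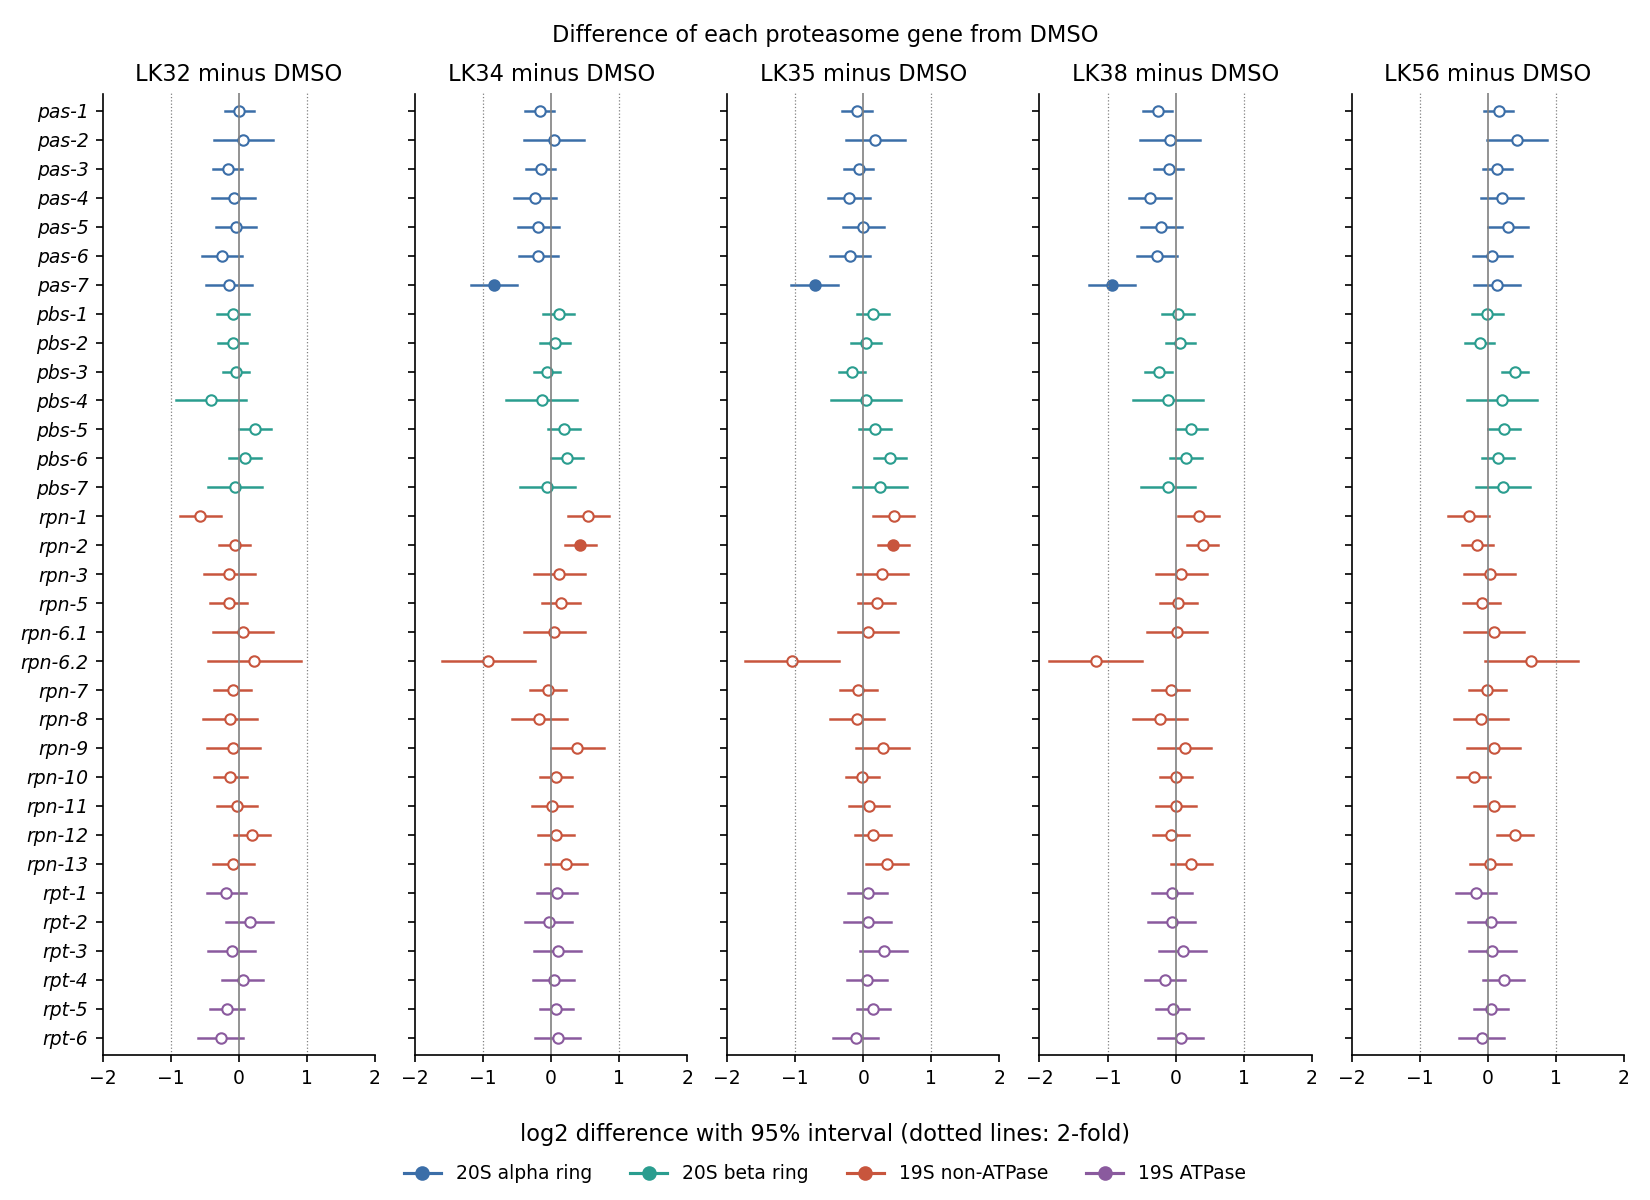
The log2 difference from DMSO of each of the 33 genes is drawn in 1 panel per compound, with its 95% interval from limma (n = 3 arrays each). Filled points have an adjusted p under 0.05: pas-7 under LK34, LK35 and LK38, and rpn-2 under LK34 and LK35. Dotted lines mark a 2-fold difference.

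Of the 13 non-ATPase genes of the cap, rpn-2 was called higher. RPN-2 and RPN-1 are the large scaffold subunits at the base of the particle, where ubiquitin receptors and substrate shuttles dock. rpn-2 had 1743, 1705 and 1916 under LK34, 1900.5, 1688 and 1812 under LK35 and 1573, 1705 and 1992 under LK38, against 1250.5, 1299.6 and 1431 in DMSO. All 9 compound arrays were above all 3 DMSO arrays, and the LK32 arrays (1185, 1181 and 1457) and LK56 arrays (1302, 1182 and 1099) overlapped DMSO. The log2 difference was 0.43 under LK34, 0.44 under LK35 and 0.40 under LK38 (SE 0.10 each, limma adjusted p = 0.0403, 0.0361 and 0.0571), which is 1.35, 1.36 and 1.32 times the DMSO level.

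The rpn-2 calls were close to the threshold. Leaving out 1 array at a time, the call held in 8 of 18 fits under LK34 and in 10 of 18 under LK35, and the difference stayed between 0.38 and 0.50 in all of them. Under LK34 it was lost without any 1 array of DMSO or LK34, or without LK32 A, LK35 C, LK38 B or LK56 B. Under LK35 it was lost without DMSO A, DMSO B, LK34 A, LK34 B, LK35 A, LK35 C, LK38 B or LK56 B. Of the 18 fits under LK38, rpn-2 passed in those without LK32 C or LK38 A (0.31 to 0.48), and with the array letter as a replicate block it also passed (0.40, limma adjusted p = 0.0474). When the arrays of the 2 groups alone were fitted, the calls under LK34 and LK35 were lost (limma adjusted p = 0.0992 and 0.114). A second rpn-2 probe set was dim, with 27.3, 34.4 and 22.8 on the DMSO arrays, and passed with no compound. The rpn-2 calls were also lost when each array was centred on the median of its brighter probe sets, at 0.31 under LK34 and 0.40 under LK35.

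rpn-1 did not pass against DMSO, and it is described because its values were seen. It had 2422, 2290.3 and 2749 under LK34, 2296, 2128 and 2533 under LK35 and 2069, 1998 and 2415 under LK38, against 1419, 2015 and 1711 in DMSO. The arrays of LK34 and LK35 were all above DMSO, and 1 of LK38 fell inside its range. Under LK32 the values were 1145, 1020.2 and 1284, all below DMSO, and under LK56 1614, 1325 and 1279.5. The log2 differences were 0.55, 0.45 and 0.34 under LK34, LK35 and LK38 and -0.57 and -0.28 under LK32 and LK56 (SE 0.14 each). In limma the adjusted p was 0.0519 under LK34, 0.125 under LK35, 0.294 under LK38 and 0.102 under LK32. rpn-1 passed under LK34 without DMSO B, LK32 C, LK38 C or LK56 A (0.42 to 0.67 over the 18 fits) and under LK32 without DMSO A (-0.70 to -0.44).

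rpn-6.2, a paralog of the lid subunit gene rpn-6.1, was dim and widely spread, and its values too were seen before it was chosen. It had 51.5, 85.2 and 96.1 under LK34, 56.7, 77.6 and 74.1 under LK35 and 66.4, 49.6 and 77.1 under LK38, against 129, 148 and 152 in DMSO. Every one of these 9 arrays was below DMSO, with log2 differences of -0.93, -1.05 and -1.17 that did not pass (SE 0.32, limma adjusted p = 0.17, 0.11 and 0.0663). Under LK56 it had 306, 249.6 and 143. rpn-6.1 itself differed by 0.02 to 0.09 with the 5 compounds.

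rpn-8 and rpn-3, the brightest non-ATPase genes, code for lid subunits. rpn-8 had 3805, 3604 and 3417 under LK32, 3422, 3282 and 3839 under LK34, 3892, 3397 and 3796 under LK35, 3149.6, 3182 and 3796 under LK38 and 4763, 2503 and 4166 under LK56, against 3674, 4367 and 3839 in DMSO. The LK56 arrays alone spanned more than the whole range of the other groups. rpn-3 had 2766, 2387 and 3451 under LK32, 3185, 3208 and 3870.1 under LK34, 3983, 3461 and 3989.7 under LK35, 2926, 3090.1 and 4069 under LK38 and 3998, 2921 and 2781 under LK56, against 2936, 2969 and 3525 in DMSO. All 5 compound groups of rpn-3 overlapped DMSO.

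The ubiquitin receptors rpn-10 and rpn-13 and the deubiquitinase rpn-11 passed with no compound. Their differences were -0.20 to 0.07 for rpn-10, -0.03 to 0.09 for rpn-11 and -0.08 to 0.35 for rpn-13. The brightest rpn-10 probe set held 1 equal value, 2048, on all 3 DMSO arrays, so its spread there was 0. A second rpn-10 probe set had 798, 722 and 961 under LK34 and 924, 761 and 836 under LK35, against 586, 531 and 666 in DMSO. Both compound groups lay above DMSO on it, by 0.47 and 0.50 on the log2 scale (SE 0.20 each, limma adjusted p = 0.335 and 0.282), without passing. rpn-12, a lid subunit, was 0.40 higher under LK56, with all 3 arrays above DMSO and a limma adjusted p of 0.186. Over all 13 non-ATPase genes the median was -0.08 under LK32, 0.07 under LK34, 0.14 under LK35, 0.02 under LK38 and 0.03 under LK56.

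**Figure D3:**
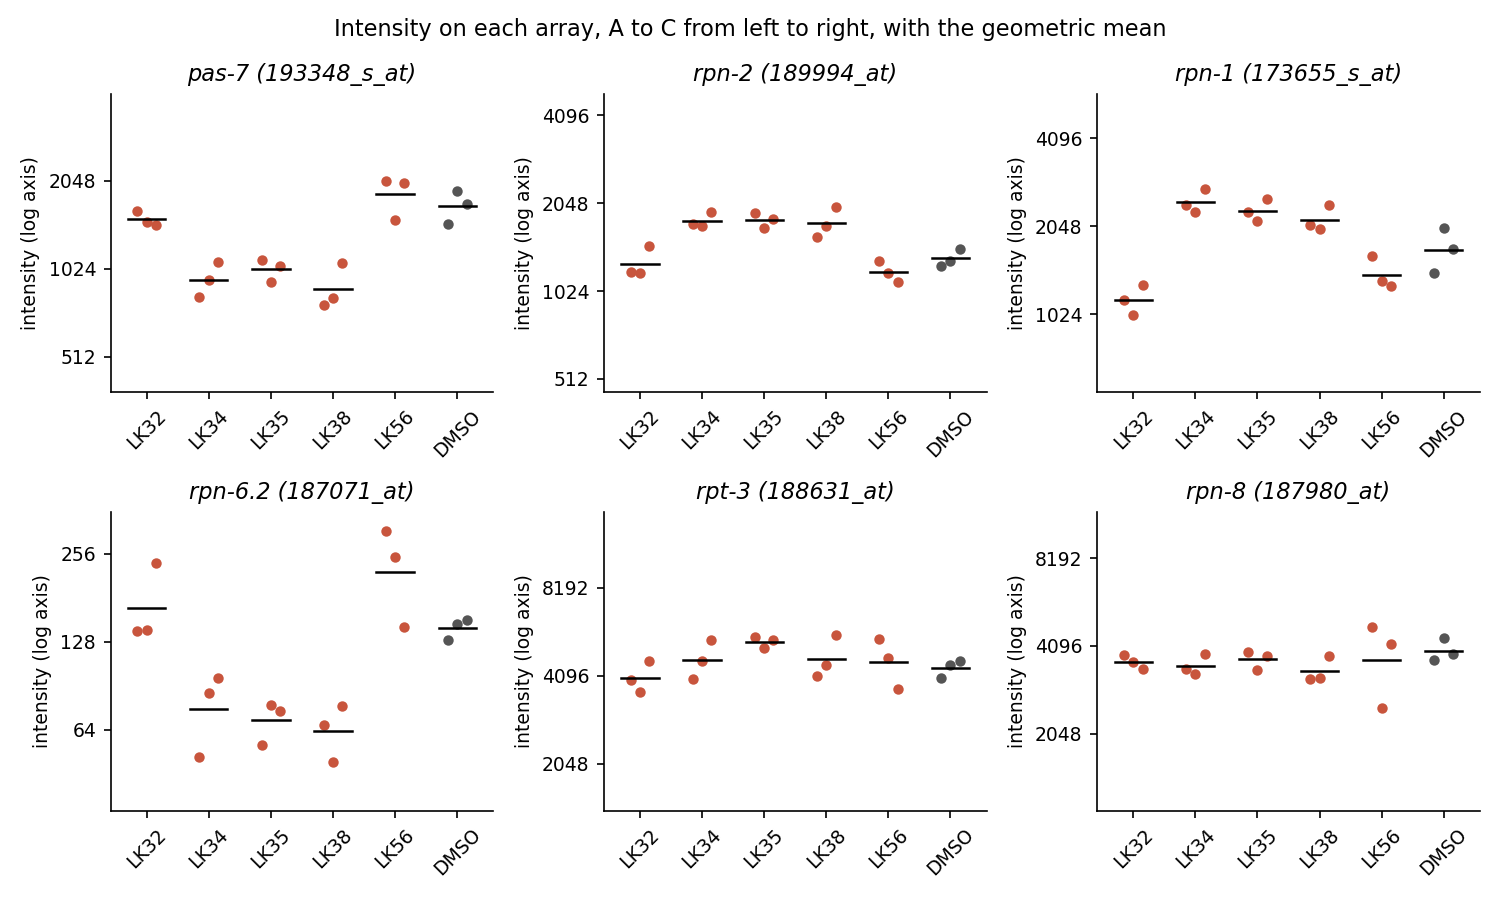
Intensity of pas-7, rpn-2, rpn-1, rpn-6.2, rpt-3 and rpn-8 on each of the 18 arrays, on log axes of equal span, with the geometric mean of the 3 arrays as a bar and DMSO at the right in grey. In pas-7 the 9 arrays of LK34, LK35 and LK38 all lie at 1095 or below and all DMSO arrays at 1459 or above, while rpt-3 and rpn-8 show overlapping groups.

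The ATPases pull substrates into the core, and 0 of the 6 rpt genes passed against DMSO in limma, with a lowest adjusted p of 0.539 for rpt-3 under LK35. rpt-3 had 3971, 3616 and 4587 under LK32, 3998, 4611 and 5431 under LK34, 5552, 5112 and 5411 under LK35, 4090.5, 4451 and 5653 under LK38 and 5456, 4697 and 3687 under LK56, against 4021, 4461 and 4593 in DMSO. The LK35 arrays were all above DMSO and the other groups overlapped it. Its log2 difference was -0.11 under LK32, 0.09 under LK34, 0.30 under LK35, 0.11 under LK38 and 0.07 under LK56 (SE 0.16 each). The 95% intervals put the rpt-3 message between 0.731 and 1.18 times the DMSO level under LK32, 0.840 and 1.36 under LK34, 0.969 and 1.56 under LK35, 0.848 and 1.37 under LK38, and 0.824 and 1.33 under LK56.

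rpt-1, the brightest of the ATPase genes, had 4273, 4635 and 4962 under LK32, 5072, 5492 and 6212 under LK34, 6065, 5045 and 5394 under LK35, 4708, 4719 and 5841 under LK38 and 5647, 3824 and 4679 under LK56, against 5187, 5250.4 and 5299 in DMSO. The LK32 arrays were all below DMSO, where the arrays lay close together. A second rpt-1 probe set was higher on all 3 LK35 arrays than in DMSO, by 0.56 (SE 0.36), and did not pass (limma adjusted p = 0.645), where the brighter one differed by 0.06. rpt-6 was dim throughout, between 44.98 and 70.21 over the 18 arrays, so that little can be read from it. The median over the 6 genes was -0.14 under LK32, 0.08 under LK34, 0.06 under LK35, -0.05 under LK38 and 0.05 under LK56.

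Genes whose 3 compound arrays all lay beyond all 3 DMSO arrays were also counted. Under LK35, 8 of 33 genes (24.2%) had all arrays above DMSO, against 8.36% of all probe sets and 19.8% of the brighter ones. Under LK34 there were 5 (15.2%), against 10.2% of all and 23.3% of the brighter, and under LK38 3 (9.09%), against 8.97% and 19.9%. LK56 had 6 (18.2%), against 14.7% and 32.5%, and LK32 had 1 (3.03%), against 8.73% and 18.7%. Below DMSO there were 5 genes under LK32 (15.2%), against 1.67% of all and 3.92% of the brighter probe sets: pas-6, rpn-1, rpt-1, rpt-5 and rpt-6. The other compounds had 2, 2, 3 and 1 such genes under LK34, LK35, LK38 and LK56, against 6.39%, 6.98%, 6.48% and 0.674% of all probe sets.

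**Figure D4:**
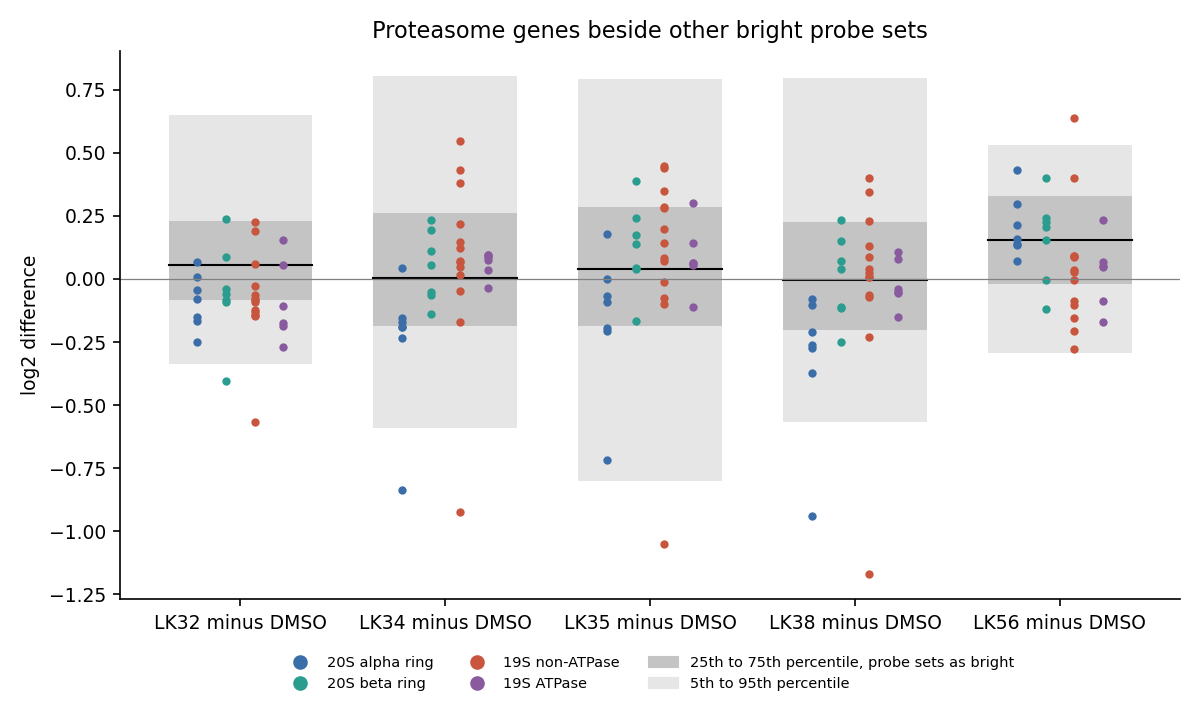
Log2 differences from DMSO of the 33 genes are shown as points coloured by subcomplex, over the spread of the 1947 probe sets at least as bright as the dimmest proteasome gene other than rpn-6.2 and rpt-6 (dark grey 25th to 75th percentile, light grey 5th to 95th, line the median). Most points lie inside the light band in each comparison, with pas-7 and rpn-6.2 below it for LK34 and LK38, rpn-6.2 below it for LK35, rpn-1 and pbs-4 below it for LK32, and rpn-6.2 above it for LK56.

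The compounds were also set directly against each other. Over the 10 pairs of compounds, given at a matched dose and time, 9 of the 33 genes were called in at least 1 pair, with p-values adjusted over all probe sets within each pair. That is 27.3% of the genes, against 14.9% of all probe sets and 33.5% of the brighter ones. These were 32 calls in all, and when the arrays of each pair alone were fitted, 7 calls of 3 genes (rpn-1, rpn-2 and pbs-3) remained, with every difference of the same size. Between LK34, LK35 and LK38 0 of 33 genes were called in either direction in the 3 pairs, and the lowest adjusted p in limma was 1 in each. Of all probe sets 0.0843% were higher and 0.00443% lower in LK34 than in LK35, and 0.0976% and 0.155% in LK34 than in LK38. The 95% intervals of all 33 differences lay inside 2-fold in these pairs too. At an unadjusted p under 0.05 the count was 0 in each of these 3 pairs as well, against 1.84% of all probe sets higher and 0.408% lower for LK34 against LK35, 0.847% and 1.21% for LK34 against LK38, and 0.439% and 2.13% for LK35 against LK38. LK32 against LK56 gave 0 calls too (0.137% of all probe sets higher and 0.2% lower), with 0 genes higher and 5 lower in LK32 at the unadjusted limit, against 1.54% and 4.1% of all probe sets.

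LK35 and LK38 share an N,N-dialkylated phenyl triazene substructure, and no proteasome gene passed the test between them. LK35 minus LK38 ran from -0.19 (rpt-6) to 0.35 (pbs-7), with a median of 0.12 and 28 of 33 genes positive, against a median of -0.01 over the brighter probe sets. The 95% intervals of all 33 differences lay inside 2-fold in either direction. For pas-7 the difference was 0.22 (95% interval -0.12 to 0.56), for rpn-2 0.04 (-0.19 to 0.27) and for rpt-3 0.19 (-0.15 to 0.54). Of all probe sets, 0.00443% were called higher and 0.208% lower in LK35 than in LK38. The array medians of the 33 genes lay between 0.02 and 0.14 under LK35 and between -0.15 and 0.11 under LK38, relative to DMSO.

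LK32 differed from LK34, LK35 and LK38 in the same 4 genes, pas-7 and rpn-6.2 being higher in LK32 and rpn-1 and rpn-2 lower. The share of all probe sets called higher in LK32 was 4.52%, 6.2% and 4.4% in the 3 pairs, and the share called lower 2.47%, 2.16% and 1.9%, beside 2 of 33 genes (6.06%) each way. rpn-1 showed the clearest separation: LK32 minus LK34 was -1.12, minus LK35 -1.02 and minus LK38 -0.91 (SE 0.14 each, limma adjusted p = 0.000349, 0.000586 and 0.00147). The LK32 arrays of rpn-1 reached 1284 at most, and the lowest array of the other 3 compounds was at 1998. These 3 calls held in 18 of 18 fits with 1 array left out. With the arrays of each pair alone, the call against LK34 remained (limma adjusted p = 0.0379), and those against LK35 and LK38 were lost (0.0503 and 0.0748).

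The other calls of LK32 against these compounds were less firm, and none remained with the arrays of each pair alone. For rpn-2 the differences were -0.49, -0.50 and -0.46 (SE 0.10), called in 16, 18 and 15 of 18 fits, and lost without LK32 A or LK34 C in the first pair and without LK32 A, LK32 B or LK38 C in the last. For pas-7 they were 0.69, 0.57 and 0.79 (SE 0.16), called in 15, 9 and 18 fits. Against LK34 the pas-7 call was lost without LK32 A, LK34 A or LK34 B, and against LK35 without any 1 array of LK32 or LK35, or without DMSO C, LK34 B or LK38 B. rpn-6.2 was higher by 1.15, 1.28 and 1.40 (SE 0.32), called in 2, 15 and 16 fits. Against LK34 its call stood only without LK56 A or LK56 C, against LK35 it was lost without LK32 C, LK35 A or LK35 C, and against LK38 without LK32 C or LK38 B.

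Against LK56, more genes were called, among them several of the alpha ring. rpn-1 and rpn-2 were higher under LK34, LK35 and LK38 than under LK56, by 0.83, 0.73 and 0.62 for rpn-1 (SE 0.14) and by 0.58, 0.59 and 0.55 for rpn-2 (SE 0.10). Of all probe sets 2.4%, 2.01% and 1.97% were higher in these pairs, against 2 of 33 genes each time. Lower than under LK56 were 4 genes under LK34 (pas-5, pas-7, pbs-3 and rpn-6.2), 3 under LK35 (pas-7, pbs-3 and rpn-6.2) and 7 under LK38 (pas-1, pas-4, pas-5, pas-7, pbs-3, rpn-12 and rpn-6.2). The shares of all probe sets called lower were 6.74%, 7.84% and 6.86%, and of the brighter ones 15.2%, 17.7% and 15.6%, against 12.1%, 9.09% and 21.2% of the proteasome genes.

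The difference of pas-7 from LK56 was -0.97 under LK34, -0.85 under LK35 and -1.07 under LK38 (SE 0.16, limma adjusted p = 0.0019, 0.00385 and 0.000967). For pbs-3 it was -0.46, -0.56 and -0.65 (SE 0.09, limma adjusted p = 0.00565, 0.00149 and 0.000631), and these calls and those of pas-7 held in 18 of 18 fits. On the second, dimmer pbs-3 probe set the means were 1226 ± 126, 1268 ± 81.9 and 1155 ± 222, against 1462 ± 257 under LK56 (SD). Each of these groups overlapped LK56 there. On the dimmer pbs-7 probe set they were 2817 ± 340, 3062 ± 358 and 2696 ± 253, against 4204 ± 247 under LK56, without overlap. With the arrays of each pair alone, all 3 pbs-3 calls remained (limma adjusted p = 0.0355, 0.0358 and 0.0442), as did rpn-1 in LK34 and rpn-2 in LK34 and LK35 (0.0465, 0.042 and 0.0465), while the 3 pas-7 calls were lost (0.0697, 0.0822 and 0.0878). Under LK38 the 7 alpha genes all had lower means than under LK56, with differences of -0.24 (pas-3) to -1.07 (pas-7) and a median of -0.50, and 4 of them passed. The median over the brighter probe sets was -0.14 in this pair. Array LK56 A had the highest array median of the 33 genes, 0.27 above the DMSO mean, and the highest median intensity of the brighter probe sets, 545 against 357 to 518 on the other 17 arrays. Without LK56 A, 5 genes rather than 9 were called in any pair of compounds, and without LK38 B also 5. The calls of pas-1, pas-4, pas-5 and rpn-12 between LK38 and LK56 were each lost without LK56 A or without LK38 A or LK38 B. Those of pas-1, pas-5 and rpn-12 were lost without LK56 B as well, and that of pas-5 also without LK56 C, DMSO C, LK32 A, LK34 B or LK35 C. The call of pas-5 between LK34 and LK56 stood in 6 of 18 fits, those without LK32 B, LK32 C, LK34 C, LK35 A, LK38 A or LK38 C, and rpn-1 between LK38 and LK56 was lost without LK38 C or LK56 B.

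The genes that act beside the proteasome were read from lists of related factors. Of 7 measured proteasome-associated genes (dss-1, hecd-1, psme-3, txl-1, ubh-4, usp-14 and rpn-13, which is also a member above), 0 were called against DMSO with any compound, and the list median was between -0.08 under LK34 and 0.08 under LK56. At an unadjusted p under 0.05, 0, 0, 1, 0 and 1 were higher and 0, 1, 1, 1 and 0 lower under LK32, LK34, LK35, LK38 and LK56. aip-1, a regulator of the proteasome under arsenite stress, was not analysed here.

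Of 6 genes, skn-1 itself and genes of SKN-1 processing and regulation, 1 was called, higher under LK34, where 2.25% of all probe sets were. wdr-23, the adaptor that marks SKN-1 for degradation, had 1014, 1001 and 1122 under LK34, against 754, 705 and 636 in DMSO, a log2 difference of 0.58 (SE 0.13, limma adjusted p = 0.0234), all 3 LK34 arrays being above DMSO. The wdr-23 arrays of LK32, LK35 and LK56 were also all above DMSO, and LK38 overlapped it. The differences under LK32, LK35 and LK56 were 0.40, 0.27 and 0.51 and did not pass (limma adjusted p = 0.254, 0.448 and 0.109). ddi-1, the protease that cuts SKN-1A, had 665, 725 and 839 under LK38, against 938, 1023 and 1048 in DMSO, a difference of -0.44 (SE 0.12) that did not pass (limma adjusted p = 0.0674). For png-1, the deglycosylating enzyme, the differences were -0.15 to 0.18. skn-1 itself ranged from -1.69 under LK56 to 0.93 under LK35 with an SE of 0.81, and its LK56 arrays were at 176, 14.3 and 249.6, so that its message was too unsteady to place.

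More calls were found among detoxification genes known to be under SKN-1 control. Of 8 such genes 7 were called higher under LK32, 6 under LK34, 1 under LK35, 3 under LK38 and 4 under LK56, and 0 lower. The shares of all probe sets called higher were 0.927%, 2.25%, 1.71%, 2.19% and 0.767% in the same order. gst-4, a glutathione S-transferase often used as a SKN-1 reporter, had 352, 340.4 and 508 under LK32, 942, 869.8 and 971 under LK34, 4.61, 8.46 and 16.12 under LK35, 11.1, 14.1 and 16.12 under LK38 and 83.5, 48.0 and 51.5 under LK56, against 15.97, 6.56 and 16.12 in DMSO. The arrays of LK32, LK34 and LK56 were all above DMSO (limma adjusted p = 0.000143, 4.74e-06 and 0.0298), and those of LK35 and LK38 were near the floor of 4.605, as DMSO was. gst-5 was higher under LK32, LK34, LK38 and LK56 and gst-10 with all 5 compounds. The largest fitted gst-5 difference was 5.56 under LK56, where the arrays had 4912, 4320.3 and 3545, against 121, 70.1 and 84.3 in DMSO. Under LK32 and LK56, where 7 and 4 of these genes were higher, 0 proteasome genes were called, and the part of SKN-1 in either was not tested. In the study a gst-4 reporter responded to LK32 and LK34 through SKN-1 and was not activated by LK56.

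In 4 lists of other protein quality control genes, 1 gene of each was called higher under LK34, LK35 and LK38. These counts stand beside 2.25%, 1.71% and 2.19% of all probe sets called higher and 5.39%, 4.18% and 5.26% of the brighter ones. Of 16 measured genes of CDC-48, the ATPase that hands ubiquitinated proteins on, and its cofactors and shuttles, 1 was higher, cdc-48.1. It had 1898, 2037 and 2408 under LK34, 2285, 1898 and 2220.2 under LK35 and 1678, 1898 and 2269.9 under LK38, against 1137, 1078 and 1129.6 in DMSO. All 9 compound arrays were above DMSO, by 0.92, 0.93 and 0.80 on the log2 scale (SE 0.17, limma adjusted p = 0.00856, 0.00764 and 0.0199). cdc-48.2 and ubxn-1 did not pass, but their 9 arrays were all above DMSO as well. Of the brighter probe sets 23.3%, 19.8% and 19.9% had all arrays above DMSO under LK34, LK35 and LK38. Those shares also stand beside the uncalled genes described in this way in the next lists. The other measured genes of this list overlapped DMSO in at least 1 of these groups.

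Of 7 measured genes of ubiquitin and its first enzymes, uba-1, the ubiquitin-activating enzyme, was higher and ubq-2, a ubiquitin fused to a ribosomal protein, was lower under LK38. uba-1 had 2004, 2499 and 2501 under LK34, 2618, 2156 and 2812 under LK35 and 1919, 2085 and 2810.0 under LK38, against 1329.5, 1264 and 1314 in DMSO, a log2 difference of 0.83, 0.95 and 0.78 (SE 0.16, limma adjusted p = 0.00863, 0.00396 and 0.0129). The probe sets of uba-1, cdc-48.1 and wdr-23 are of the kind whose probes can match several transcripts. ubq-2 had 19414, 18472 and 19714 under LK38, against 23679.9, 24583 and 24025 in DMSO, a difference of -0.33 (SE 0.08, limma adjusted p = 0.0383). ubq-1, another ubiquitin gene, was above DMSO on all arrays of LK34, LK35 and LK38, and ubq-2 was below DMSO on all of them. Of the brighter probe sets 14.5%, 15.8% and 14.7% had all arrays below DMSO, in the same order. The ubq-1 differences were 0.37, 0.45 and 0.33 and did not pass (SE 0.12, limma adjusted p = 0.142, 0.0675 and 0.22). Most of the conjugating enzymes on that list were not analysed here.

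Among 8 genes of the chaperonin CCT, which folds actin and tubulin, cct-7 was higher under LK34, LK35 and LK38, by 0.52, 0.43 and 0.47 (SE 0.10, limma adjusted p = 0.00944, 0.0282 and 0.0164). cct-6 and the dim cct-3 did not pass, but all their arrays of these groups were above DMSO, and other CCT genes overlapped it. For cct-3 the values were near the floor and the margin was slight, 8.499 on LK38 B against 8.497 on DMSO A. Among 9 heat shock probe sets, hsp-1, the constitutive HSP70, was higher by 0.88, 0.91 and 0.77 (SE 0.10, limma adjusted p = 0.000239, 0.000178 and 0.000543). It had 9043, 8057 and 9128 under LK34, 9199.7, 7909 and 9796 under LK35 and 7752, 7700.2 and 9001 under LK38, against 4241, 4813 and 5259.9 in DMSO. hsp-90 and the probe sets of F44E5.4/F44E5.5, hsp-16.1/hsp-16.11 and hsp-16.48/hsp-16.49 did not pass, but all their arrays of these groups were above DMSO. For hsp-16.48/hsp-16.49 the margin was slight, 22.91 on LK38 B against 22.77 on DMSO C. F44E5.4/F44E5.5 had 76.0, 271 and 604 under LK34, 295, 318 and 323 under LK35 and 97.5, 101 and 894 under LK38. Its DMSO arrays had 4.61, 27.3 and 45.2. hsp-110 overlapped DMSO, and hsp-16.2, hsp-16.41 and hsp-70 had arrays at or near the floor. Of 76 cytosolic ribosomal genes, another large complex, 0 were called under LK32 or LK56 and 3, 10 and 9 were lower under LK34, LK35 and LK38, with medians of -0.08, -0.10 and -0.11. Under these 3 compounds 1.39%, 1.88% and 1.58% of all probe sets and 3.38%, 4.58% and 3.86% of the brighter ones were called lower. rpl-11.2, rps-7 and rpl-3 were among those lower with all 3.

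**Figure D5:**
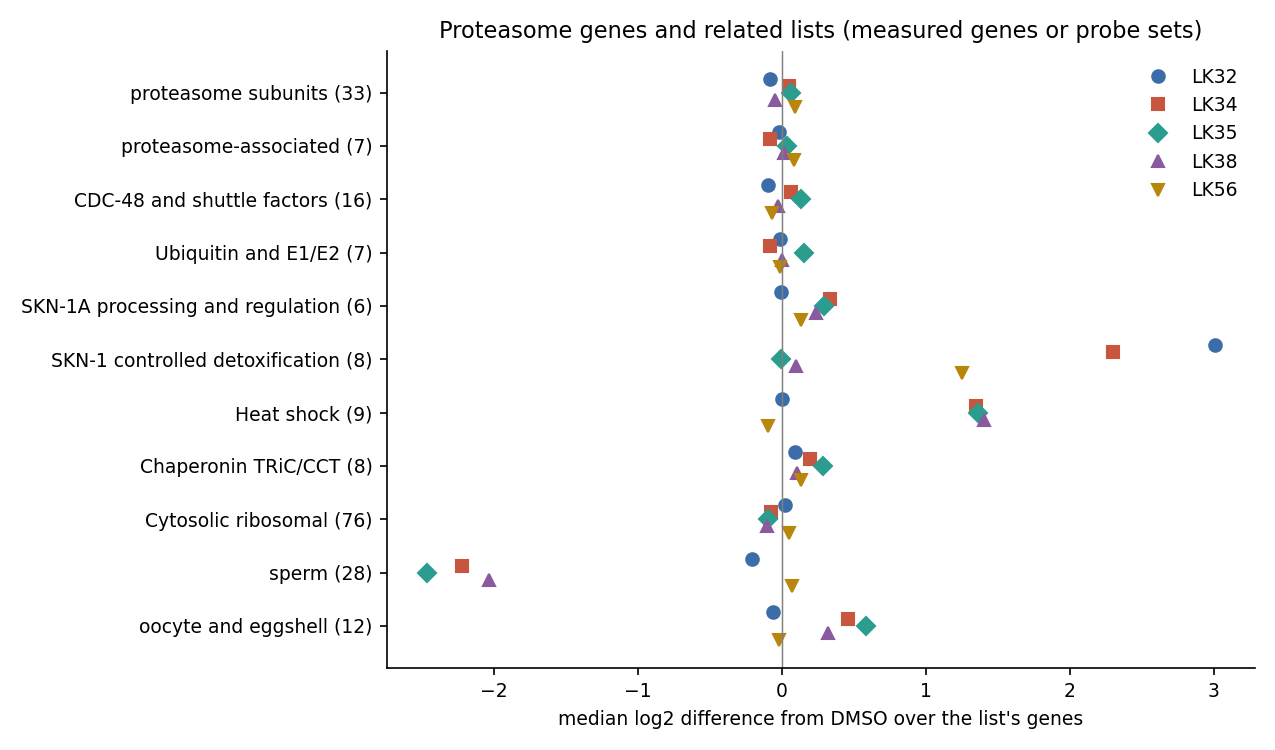
Median log2 difference from DMSO over the proteasome genes and over 10 related or marker lists, with 1 symbol per compound and the number of measured genes or probe sets in brackets. Proteasome medians lie between -0.08 and 0.09, while the SKN-1 detoxification list reaches 3.01 under LK32 and the sperm list -2.47 under LK35.

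Marker genes of several cell types differed under the same 3 compounds. Of 28 probe sets for major sperm proteins, 28, 28 and 27 were called lower under LK34, LK35 and LK38, and 0 under LK32 and LK56. Their summed intensity was 14968 to 23236 under LK34, 13976 to 15265 under LK35 and 16563 to 24708 under LK38, against 74301 to 87942 in DMSO. Of 12 oocyte and eggshell genes 3, 4 and 0 were higher under LK34, LK35 and LK38, and of 10 intestinal genes 2, 4 and 2 were lower and 1, 1 and 2 higher. Of all probe sets 2.25%, 1.71% and 2.19% were called higher and 1.39%, 1.88% and 1.58% lower under LK34, LK35 and LK38. Of the brighter ones 5.39%, 4.18% and 5.26% were higher and 3.38%, 4.58% and 3.86% lower. These are the groups in which pas-7 was called lower and all rpn-2 arrays lay above DMSO, and the part of the cell-type changes in those results was not tested.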

How the data were processed

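The submitters hybridised biotin-labelled total RNA to Affymetrix C. elegans arrays and deposited 1 intensity per probe set and array, on a linear scale. Their processing notes name GCRMA, which corrects background, normalizes between arrays and summarises probes (version not given in the sources used here). The deposited intensities had a floor of 4.605 and reached 58200.7. Of 22625 probe sets 77 controls were left out. Values were put on the log2 scale and fitted with limma 3.58.1 (R 4.3.3), with 1 mean per group over 18 arrays and 12 residual degrees of freedom. A call was a Benjamini-Hochberg adjusted p under 0.05 within a comparison over 22548 probe sets. The fit was tested on simulated data. A gene was read from its brightest probe set, and 26 of 39 probe sets were of the kind that can match several transcripts. The members and lists were chosen with earlier results of these data known. Named genes were those called against DMSO, the 2 brightest of each subcomplex and rpt-3, called genes of each list, and skn-1, png-1, ddi-1 and gst-4; others were named after their values were seen. Lists covered related factors, ribosomal genes and markers of sperm, oocytes, germ line, intestine, muscle, epidermis and neurons. For germ line, 1, 1 and 0 of 12 genes were higher under LK34, LK35 and LK38, for muscle 0, 1 and 0 of 8 lower, for epidermis 1, 0 and 0 of 8 lower, and for neurons 1, 1 and 1 of 8 higher. Under LK32, 2 of 10 intestinal genes were higher, against 0.927% of all probe sets. Of all probe sets 2.25%, 1.71% and 2.19% were higher and 1.39%, 1.88% and 1.58% lower under LK34, LK35 and LK38. Precision was limited by 3 arrays a group. Other scalings, filters, call rules, probe set choices and left-out arrays were tried.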

Additional observations from a re-analysis of the deposited data

How the results depend on the processing

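pas-7, rpn-1, rpn-2, rpn-6.2 and rpt-3 were followed singly over the settings, and none of their differences from DMSO changed sign as a call. The other proteasome genes entered only as counts, so their signs were not followed. Calls in the related lists were not followed over these settings. Counts of genes called higher or lower moved as follows, and the cause was not tested. The share of all probe sets called at each setting is not given beside them, so a moved count is not read as a result about the proteasome genes. With quantile normalization 1 gene was lower under LK32, 2 higher and 2 lower under LK34, 2 lower under LK35, 1 higher and 2 lower under LK38, the LK56 median was -0.10, and 15 genes differed between compounds, against 9. With arrays centred on the median of their brighter probe sets, 1 was lower under LK32, 0 higher under LK34 and LK35, 2 lower under LK34, LK35 and LK38, and the LK56 median was -0.15, against 0.09. With brighter probe sets alone, 2 were higher under LK34, 2 lower under LK35, and 1 higher and 2 lower under LK38. Requiring 2-fold beside the adjusted p left 0 against DMSO and 3 genes between compounds, and 2-fold alone left 0 higher and 0 lower under LK34, 0 higher under LK35 and 3 between compounds. Fitting the arrays of the 2 groups alone left 0 calls against DMSO and 3 genes between compounds. With the mean of a gene's probe sets 0 were higher under LK34 and LK35. Without probe sets that can match several transcripts, which left 13 of the 33 genes and not pas-7, 0 were called against DMSO and 4 between compounds. With array weights 1 was lower under LK32, 4 higher and 2 lower under LK34, 3 and 2 under LK35, 3 and 5 under LK38, 3 and 1 under LK56, and 24 differed between compounds. Chosen after seeing the data, leaving out LK32 C, LK35 A and LK38 C gave 2 lower under LK38 and 1 higher under LK56, and leaving out LK32 C and LK56 A gave 2 higher under LK34 and LK35 and 1 higher and 2 lower under LK38. Leaving out 1 array at a time gave 0 to 1 lower under LK32 (1 without DMSO A), 0 to 2 higher under LK34 and LK35, 0 to 1 lower under LK35, 0 to 1 higher (1 without LK32 C or LK38 A) and 1 to 2 lower (2 without LK32 C or LK56 C) under LK38, 0 to 1 higher under LK56 (1 without LK32 C or LK38 A), and 5 to 10 between compounds. The letters A to C did not pair the arrays in general: same-letter deviations correlated at -0.46 to 0.79 over 45 pairs (median -0.01) and 7 of 18 arrays correlated best with their own letter. LK34 and LK38 were the 1 pair of groups with all 3 letters over 0.1 (0.542, 0.103 and 0.787), and with the letter as a block 0 genes passed between them in limma over all arrays or, chosen after seeing the data, over theirs alone (0 and 2 at an unadjusted p under 0.05). With the letter as a replicate block, 1 gene, rpn-2, was higher under LK38, and no other of these counts moved by over 1.5 times. LK35 and LK38 differed in 0 genes under every setting tried. rpt-6 and rpn-6.2 were dim.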

Other observations

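Some intensities repeated exactly between arrays. Of the 33 proteasome genes 10 (30.3%) had a value shared to 6 decimals of log2 by at least 2 arrays, against 41.6% of the 9033 brighter probe sets. rpn-10 had 1 value on 6 arrays, including all 3 of DMSO, and 481 of the brighter probe sets (5.32%) likewise had 3 equal values in a group.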
